A study of Homo sapiens with 2 samples.

Results

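Expression of the enzymes that copy DNA was examined in PC3, an established, metastasis-derived prostate cancer cell line, after knockdown of SUB1, a single-stranded DNA-binding transcriptional coactivator. The genes were the polymerase α-primase subunits POLA1, POLA2, PRIM1 and PRIM2, the polymerase δ subunit POLD1, the polymerase ε subunits POLE and POLE2, the sliding clamp PCNA and the clamp loader subunits RFC3 and RFC4. These 10 genes, of 19218 measured, were chosen by name, with earlier results of these data known. Every array probe carrying one of the names was taken, which gave 15 probes, of which 13 passed the filter on dim probes. The data were 2 dual-colour Agilent arrays of 1 slide. Cells grown with 10% serum were transfected with Non-T siRNA or with a SUB1 siRNA duplex, transfected again 24 h later and harvested 72 h after the first transfection. For its transfections the paper names either oligofectamine or Lipofectamine RNAiMAX. On each array Non-T RNA carried Cy3 and SUB1 siRNA RNA carried Cy5, with SUB1 siRNA 1 on one array and SUB1 siRNA 2 on the other. The dyes were not swapped, so a dye bias and an effect of knockdown cannot be told apart, and no siRNA has a replicate array. Whether both arrays held the same Non-T extract is not stated in the sources used here, so the comparisons may share their control.

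DNA synthesis at a replication fork starts with the polymerase α-primase complex, in which primase lays down a short RNA primer and polymerase α extends it with DNA. The clamp loader, replication factor C, then opens the ring-shaped PCNA trimer and closes it around the primed template, and the ring tethers the processive polymerases to DNA. Polymerase ε is regarded as the main leading-strand enzyme and polymerase δ as the main lagging-strand enzyme. Many of these genes are known to be transcribed in late G1 and S phase under control of E2F factors, and proliferating cancer cells such as PC3 express them.

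SUB1 itself was at 10.2% of the Non-T level with siRNA 1 and at 10.4% with siRNA 2. Its mean log2 ratio was -3.28 ± 0.09 (moderated SE over 2 arrays, limma adjusted p = 0.026). The array carried 4 SUB1 probes, and these values are from the brightest that passed the filter. Here and below, each SE of a mean over both siRNAs is limma's moderated SE. In it the variance of a gene is drawn toward that of all genes, so it is not the SE of the 2 array values alone. Of the gene spots, 54.3% on either array were well above background in Cy3. All 6 epithelial markers (KRT8, KRT18, KRT19, EPCAM, CDH1 and VIM, the last a mesenchymal filament protein that PC3 cells carry) were well above background in Non-T cells on both arrays. Of 5 prostate luminal markers 3 were, but the KLK3 probes disagreed, with 1 of 3 above background. The KLK2 probes disagreed too, and only the brightest was above background. Of the leukocyte markers, CD3E had a second probe that was not above background on the siRNA 1 array. Of 5 stromal and 5 leukocyte markers, 3 each were above background, all dimly apart from the macrophage-associated CD68, and COL3A1, PDGFRB and PTPRC were among those that were not. The summed signal of the stromal markers was 566 and 471 in Non-T cells and 684 and 504 in SUB1 siRNA cells. That of the leukocyte markers was 739 and 699 in Non-T cells and 678 and 902 in SUB1 siRNA cells, and their part in the results below was not tested. Of the 10 reference genes, 5 were below 0 with siRNA 1 (median -0.02) and 6 with siRNA 2 (median -0.10). By mean ratio the highest was ACTB, with log2 ratios of 0.75 and 0.37, and the lowest was RPLP0, a ribosomal protein gene, with -0.43 and -0.55. GAPDH had 0.01 and -0.07. A few genes used as references therefore lay about as far from 0 as the medians of the replication genes given next.

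With either siRNA, 9 of the 10 genes were lower in SUB1 siRNA cells than in Non-T cells. A log2 ratio below 0 was found for 45.9% of all genes with siRNA 1 and for 46.5% with siRNA 2. The median log2 ratio of the 10 genes was -0.38 with siRNA 1 (range -0.73 to 0.38) and -0.56 with siRNA 2 (range -1.04 to 0.49), against 0.02 for all genes with each siRNA. The lowest were RFC4 and POLA2 with siRNA 1 and PRIM1, POLE2 and POLD1 with siRNA 2. POLE was the one gene above 0, and as described below the probe behind that value does not lie in the POLE gene. Without POLE, the medians of the other 9 genes were -0.47 and -0.68. When arrays were centred on their median in place of loess, PCNA, POLA1 and PRIM2 were also above 0 with siRNA 1, and with the scanner software's processed signals PCNA and POLA1 were. With the deposited log2 ratios PCNA was the only other gene above 0 besides POLE, at 0.008.

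By the 2-fold rule that the study applied to these arrays, 0 of the 10 genes were lower with siRNA 1 (0.609% of all genes) and 1, PRIM1, with siRNA 2 (1.07% of all genes). PRIM1 lay close to that limit and no longer passed it with no background correction (log2 ratio -0.996), with median spot signals (-0.98) or with median centring (-0.89). At 1.5-fold, POLA2 and RFC4 were lower with siRNA 1, which is 2 of 10 against 3.02% of all genes, and neither passed with median centring. With siRNA 2, POLA2, PRIM1, POLD1, POLE2 and RFC4 were lower, which is 5 of 10 against 4.24% of all genes. In the limma test of the mean of both siRNAs, no gene of the 10 passed an adjusted p of 0.05 (adjusted p from 0.114 to 0.40), and over all genes 1 lower gene did, SUB1 (0.0052%). At an unadjusted p under 0.05, POLA2, PRIM1, POLD1, POLE2, RFC3 and RFC4 were lower, 6 of 10 against 9.9% of all genes. That test takes in only the spread between the siRNA arrays, and it draws the variance of each gene toward that of all genes. It leaves out the spread of the control if both arrays held the same Non-T extract, which is not stated.

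**Figure D1:**
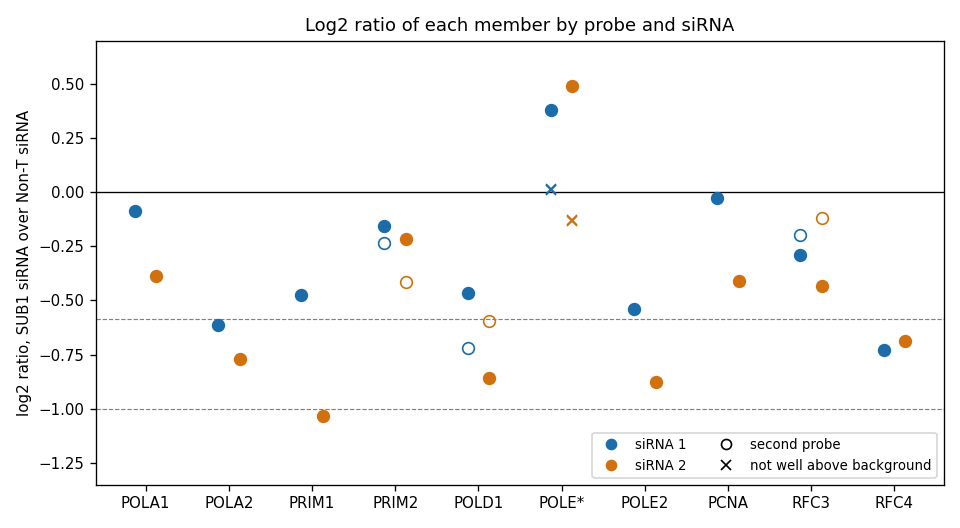
Log2 ratio of Cy5 (SUB1 siRNA) over Cy3 (Non-T siRNA, vertical axis) for every probe of the 10 genes. Filled circles are the brightest probe of a gene, open circles another probe that passed the filter and crosses probes not well above background, which for POLE overlap. Blue is siRNA 1, orange is siRNA 2, and dashed lines mark 1.5-fold and 2-fold lower. The asterisk marks POLE, whose filled circles come from a probe outside the gene. The other 9 genes lie below 0 with both siRNAs.

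**Figure D2:**
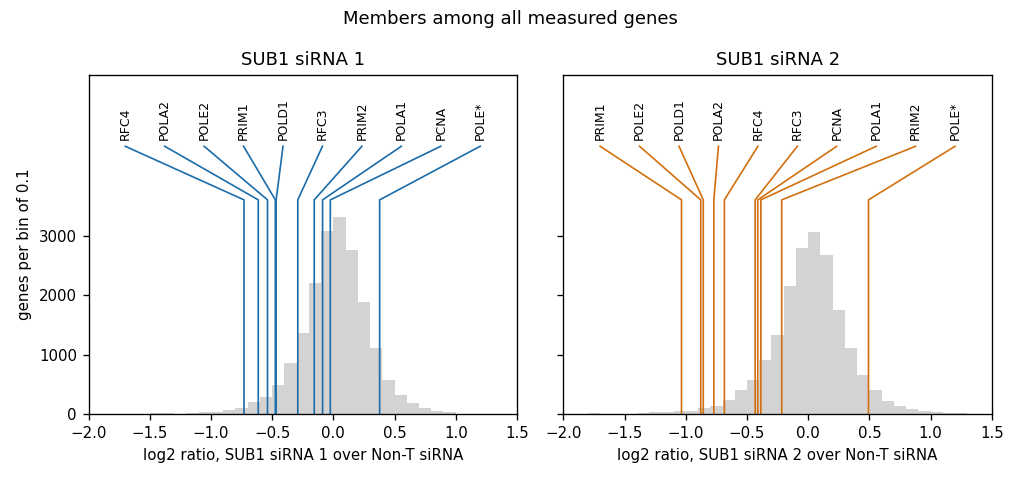
Histogram of the log2 ratios of all 19218 genes in bins of 0.1 (grey, vertical axis in genes per bin) with the 10 genes marked by coloured lines, for siRNA 1 (left) and siRNA 2 (right). With siRNA 2 the lines of PRIM1, POLE2, POLD1, POLA2 and RFC4 lie in the lowest 5% of all genes, and the line of POLE (asterisk, probe outside the gene) lies in the upper tail.

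The promoters of these genes are shown because E2F motifs are a known shared feature of replication genes. All 10 genes were matched to RefSeq promoters of GRCh38.p14, with 13 entries in all. The window from 250 bases before to 50 bases after each start was searched on both strands for TTTCCCGC, TTTGGCGC, TTTCGCGC and TTTGCCGC (E2F), for TTTGAA and TTCGAA (the CHR element of mitotic genes), for CCAAT and for GGGCGG (GC box). An E2F motif was present for 6 of the 10 genes, POLA1, POLA2, POLE, POLE2, PCNA and RFC3, and for 3.99% of all genes with a promoter entry (3.31% of all entries). A CHR motif was present for 0 of 10 (19.5% of all genes, 16.4% of entries), CCAAT for 4 of 10 (39.7% of genes, 34.6% of entries) and a GC box for 6 of 10 (48.3% of genes, 45.0% of entries). The printed windows run from 160 bases before the start to 30 after it, 5′ to 3′ along the gene. Capitals mark the E2F motif, read on either strand, and in PRIM1, which held none of the E2F sequences searched, they mark CCAAT.

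POLA1 (chrX:24693758-24693947, plus strand): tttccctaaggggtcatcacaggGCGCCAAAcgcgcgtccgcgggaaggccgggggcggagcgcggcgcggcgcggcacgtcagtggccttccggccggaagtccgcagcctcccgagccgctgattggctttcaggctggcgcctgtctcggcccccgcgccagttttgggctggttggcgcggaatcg

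POLA2 (chr11:65261802-65261991, plus strand): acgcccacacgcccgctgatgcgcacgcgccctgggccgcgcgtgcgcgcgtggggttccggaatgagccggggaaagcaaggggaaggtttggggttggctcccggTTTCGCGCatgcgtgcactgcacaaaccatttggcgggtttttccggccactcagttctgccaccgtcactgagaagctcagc

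POLE2 (chr14:49688185-49688374, minus strand): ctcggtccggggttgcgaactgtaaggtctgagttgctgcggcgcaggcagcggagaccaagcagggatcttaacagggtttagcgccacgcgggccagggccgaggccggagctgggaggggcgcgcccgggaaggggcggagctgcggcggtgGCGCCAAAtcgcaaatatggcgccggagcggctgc

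PCNA (chr20:5126593-5126782, minus strand): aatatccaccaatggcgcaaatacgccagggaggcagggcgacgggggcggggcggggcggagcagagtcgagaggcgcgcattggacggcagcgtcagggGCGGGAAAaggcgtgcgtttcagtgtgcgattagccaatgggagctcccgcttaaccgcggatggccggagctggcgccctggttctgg

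RFC3 (chr13:33817989-33818178, plus strand): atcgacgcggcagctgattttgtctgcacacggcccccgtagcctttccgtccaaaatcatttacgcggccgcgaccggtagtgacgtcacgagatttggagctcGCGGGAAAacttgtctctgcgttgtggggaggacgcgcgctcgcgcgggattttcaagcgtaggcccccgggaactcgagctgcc

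PRIM1 (chr12:56752294-56752483, minus strand): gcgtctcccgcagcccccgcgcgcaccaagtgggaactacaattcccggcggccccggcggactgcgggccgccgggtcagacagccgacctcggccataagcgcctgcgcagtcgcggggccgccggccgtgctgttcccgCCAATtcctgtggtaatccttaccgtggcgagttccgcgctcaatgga

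The E2F motif began 137 bases before the start of POLA1, 53 before that of POLA2, 59 before that of PCNA, 55 before that of RFC3 and 5 before that of POLE2. PCNA had 2 promoter entries, of which the printed one held the motif, overlapping a GC box, and the other did not. In POLE it began 18 bases before the start. The 5 genes with an E2F motif and a probe in the gene had log2 ratios of -0.61 to -0.02 with siRNA 1, and of -0.88 to -0.39 with siRNA 2. The 4 without a match to the searched sequences (PRIM1, PRIM2, POLD1 and RFC4) had ratios of -0.73 to -0.16 and of -1.04 to -0.22. The ranges overlapped, and genes with the motif as well as genes without it had ratios near 0 and ratios well below 0. A match describes these letters only and is no evidence of binding. Looser forms of the E2F motif were not searched, so a gene without a match can still hold one.

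Within polymerase α-primase, the primase catalytic subunit PRIM1 and the accessory subunit POLA2 were the lowest. PRIM1, which synthesises the RNA primer, had a normalized intensity of 432 in Non-T cells and 311 in SUB1 siRNA cells for siRNA 1, and then 390 and 190 for siRNA 2. It was therefore 1.39-fold lower with siRNA 1 and 2.05-fold lower with siRNA 2. Its probe (chr12:55418551-55419378, hg18) was spotted 10 times on each array. The log2 ratio was -0.47 ± 0.08 (SD, 9 spots used) with siRNA 1 and -1.04 ± 0.08 (SD, 10 spots) with siRNA 2. The used spots ran from -0.63 to -0.38 with siRNA 1, those of the siRNA 2 array from -1.12 to -0.90, and the arrays did not overlap. Spots of an array share its RNA, so their SD is technical error. Over both siRNAs the mean log2 ratio was -0.75 ± 0.16 (moderated SE, n = 2 arrays, limma adjusted p = 0.138), the lowest mean of the 10 genes.

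POLA2, the regulatory B subunit of polymerase α, had a normalized intensity of 314 in Non-T cells and 205 in SUB1 siRNA cells with siRNA 1, and 261 and 153 with siRNA 2. It was at 65.4% and 58.6% of the Non-T level, and the log2 ratios of -0.61 and -0.77 were closer to each other than those of PRIM1 (mean -0.69 ± 0.10 SE, n = 2 arrays; limma adjusted p = 0.114). On each array POLA2 lay in the lowest 3% of all genes, at percentiles 2.71 and 2.19.

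The other subunits of the complex had ratios closer to 0. POLA1, the catalytic subunit of polymerase α, had intensities of 702 in Non-T and 661 in SUB1 siRNA cells with siRNA 1, and of 631 and 483 with siRNA 2. Its log2 ratios were -0.09 and -0.39. With siRNA 1 the value was about as large as the spread between spots of similarly bright probes, which had a median SD of 0.08 among 37 probes spotted 10 times. PRIM2, the regulatory subunit of primase, had ratios of -0.16 and -0.22. Its dimmer probe, at 126 and 108 in Non-T cells, had ratios of -0.23 and -0.42. Neither POLA1 (limma adjusted p = 0.32) nor PRIM2 (limma adjusted p = 0.33) had an unadjusted p under 0.05.

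POLD1, the catalytic and proofreading subunit of polymerase δ, was lower by both of its probes. The brighter one had intensities of 2970 in Non-T cells and 2149 in SUB1 siRNA cells with siRNA 1, and of 2589 and 1429 with siRNA 2. Its log2 ratios were -0.47 and -0.86 (mean -0.66 ± 0.13 SE, n = 2 arrays; limma adjusted p = 0.133). The other probe, whose position on chr19 begins 93 bp upstream, had ratios of -0.72 and -0.59. Both probes were lower with both siRNAs, but they gave opposite orders of the siRNAs, so that order is not settled for POLD1.

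POLE2, the B subunit of polymerase ε, had intensities of 456 and 314 with siRNA 1 and of 377 and 205 with siRNA 2, in Non-T and SUB1 siRNA cells. It was at 68.9% of the Non-T level with siRNA 1 and at 54.4% with siRNA 2. Its log2 ratios of -0.54 and -0.88 placed it at percentiles 3.69 and 1.46 of all genes (mean -0.71 ± 0.12 SE, n = 2 arrays; limma adjusted p = 0.12).

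The level of POLE, the catalytic and proofreading subunit of polymerase ε, could not be read from these arrays. The array carried 3 probes under this name. The probes for NM_006231 (chr12:131719046-131719105, hg18) and AF128542 were not well above background in either channel of either array. The only probe past the filter, for AF128541 (chr12:131923584-131923643, hg18), had intensities of 108 and 141 with siRNA 1 and of 104 and 147 with siRNA 2, which gave log2 ratios of 0.38 and 0.49. It lies 204538 bp from the NM_006231 probe, whereas the RefSeq length of POLE is 63581 bp. Between it and the other POLE probes lie probes for PXMP2, PGAM5 and GOLGA3, and a probe for CHFR, a mitotic checkpoint ubiquitin ligase, lies 4201 bp beyond it. The CHFR probe had log2 ratios of 0.20 and -0.02. By its distance against the RefSeq length, the probe behind the higher value lies outside the gene, so that value was not taken as a measurement of POLE. All 3 probes under the name are on the minus strand, and which transcript this probe measures was not settled.

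PCNA, the sliding clamp, had intensities of 2780 in Non-T and 2733 in SUB1 siRNA cells with siRNA 1, and of 2469 and 1855 with siRNA 2. Its probe was also spotted 10 times. The log2 ratio was -0.02 ± 0.06 (SD, 10 spots) with siRNA 1 and -0.41 ± 0.04 (SD, 7 spots used) with siRNA 2. All 10 spots lay between -0.14 and 0.06 on the siRNA 1 array and between -0.46 and -0.35 on the siRNA 2 array, including the 3 flagged as outliers there. PCNA was therefore at 98.3% of the Non-T level with siRNA 1, within the spot error of no change, and at 75.2% with siRNA 2 (mean -0.22 ± 0.13 SE, n = 2 arrays; limma adjusted p = 0.40).

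**Figure D3:**
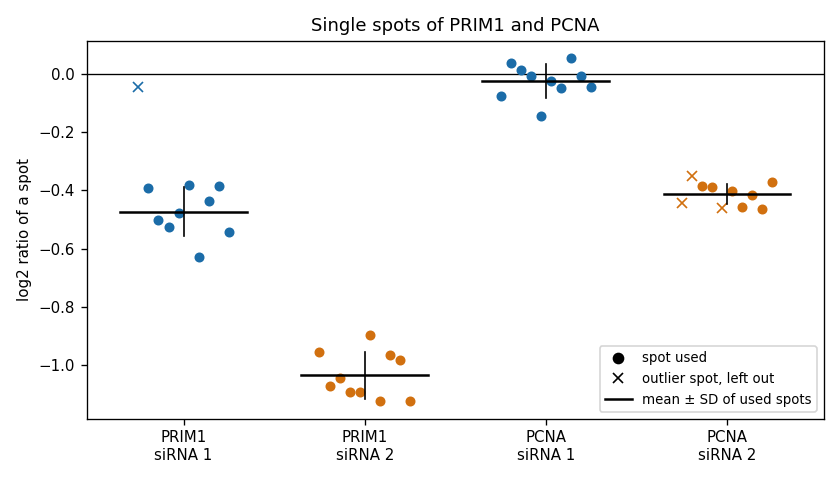
Log2 ratio of Cy5 (SUB1 siRNA) over Cy3 (Non-T siRNA, vertical axis) in each of the 10 spots of the PRIM1 and PCNA probes on the siRNA 1 array (blue) and the siRNA 2 array (orange). Crosses are spots flagged as outliers and left out, and the black lines give the mean ± SD of the used spots. The used spots of the arrays do not overlap for either gene, and those of PCNA with siRNA 1 scatter around 0.

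The clamp loader subunit RFC4 was lower to a similar extent with both siRNAs. Its intensity was 2060 in Non-T cells and 1242 in SUB1 siRNA cells with siRNA 1, and 1892 and 1177 with siRNA 2. It was at 60.3% and 62.2% of the Non-T level, with log2 ratios of -0.73 and -0.68 (mean -0.71 ± 0.09 SE, n = 2 arrays; limma adjusted p = 0.114). RFC4 was the lowest of the 10 genes with siRNA 1, at percentile 1.57 of all genes, and with siRNA 2 it lay at percentile 2.84.

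RFC3, another small clamp loader subunit, had intensities of 182 and 149 with siRNA 1 and of 161 and 119 with siRNA 2, in Non-T and SUB1 siRNA cells. Its log2 ratios were -0.29 and -0.43 (mean -0.36 ± 0.10 SE, n = 2 arrays; limma adjusted p = 0.17). The other RFC3 probe, for NM_181558, was well above background in Cy5 only and had ratios of -0.20 and -0.12. The probes lie 129557 bp apart, within the RefSeq gene length of 159229 bp.

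**Figure D4:**
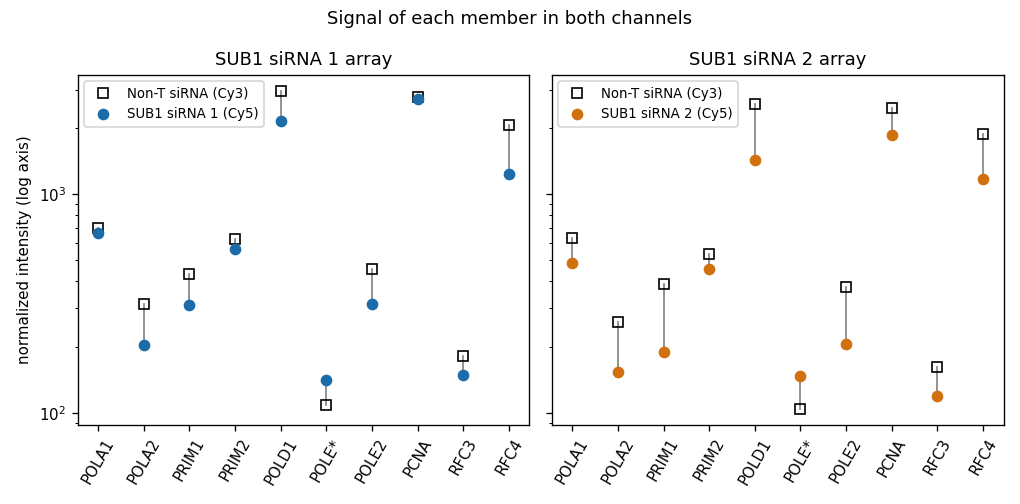
Normalized intensity (log axis) of the brightest probe of each of the 10 genes in Non-T siRNA cells (open squares, Cy3) and SUB1 siRNA cells (filled circles, Cy5) on the siRNA 1 array (left) and the siRNA 2 array (right). The circle lies below the square for 9 genes on either array, barely so for PCNA with siRNA 1, and above it for POLE (asterisk, probe outside the gene). Intensities of different probes are not comparable as transcript levels.

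Relative to Non-T siRNA, 8 of the 10 genes were lower with siRNA 2 than with siRNA 1, the exceptions being RFC4 and the probe named POLE. The median difference of the log2 ratios, siRNA 2 minus siRNA 1, was -0.23 (range -0.56 for PRIM1 to 0.11 for POLE), against -0.002 for all genes, of which 50.4% had a difference below 0. Next to PRIM1 came POLD1 (-0.39 by its brighter probe, 0.13 by the other), PCNA (-0.39) and POLE2 (-0.34). The SD of this difference over all genes was 0.31, and PRIM1 stood at percentile 3.6. The average log intensities of both channels were scaled to common quantiles across arrays, which leaves the ratios unchanged (Aquantile). After that, the Cy3 signal of the 10 genes differed between the arrays by -0.08 to 0.11 on the log2 scale. The Cy5 signal differed by -0.51 (PRIM1) to 0.20 (POLE), with a median of -0.23. The arrays thus differed for these genes more in the SUB1 siRNA channel than in the Non-T channel. With 1 array per siRNA this difference has no test.

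The remaining subunits of the same complexes did not all behave alike. Of 8 further subunits, 7 were below 0 with siRNA 1 (median -0.29) and 4 with siRNA 2 (median -0.01), against 45.9% and 46.5% of all genes. At 1.5-fold, RFC5 was lower with siRNA 1 (3.02% of all genes), and RFC5 and RFC2 with siRNA 2 (4.24% of all genes). RFC5, a small clamp loader subunit, had log2 ratios of -0.60 and -0.78, and RFC2 had -0.56 and -0.66. All 4 small clamp loader subunits, RFC2 to RFC5, thus lay below 0 with both siRNAs. The large subunit RFC1, by contrast, had ratios of 0.08 and 0.17. In polymerase δ, the accessory subunit POLD2 had ratios of -0.47 and -0.41, and POLD3 had -0.22 and -0.04. POLD4, the smallest subunit and the highest of the 8, had ratios of -0.01 and 0.30. The histone-fold subunits of polymerase ε, POLE3 and POLE4, had ratios of -0.01 and 0.17 and of -0.36 and 0.02.

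**Figure D5:**
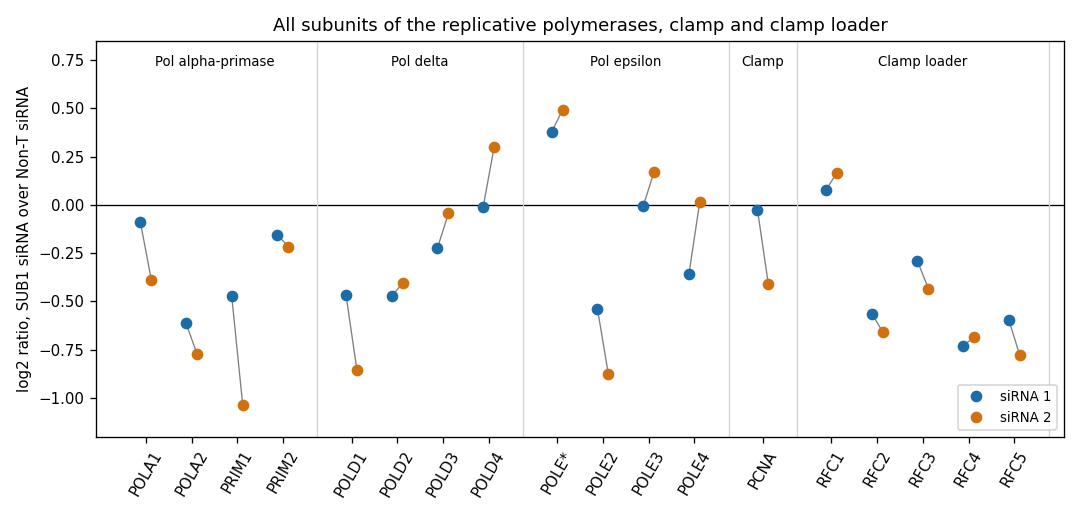
Log2 ratio of Cy5 (SUB1 siRNA) over Cy3 (Non-T siRNA, vertical axis) for every subunit of the 3 replicative polymerases, for PCNA and for the clamp loader, by the brightest probe, with siRNA 1 in blue and siRNA 2 in orange joined by a line. RFC2, RFC3, RFC4 and RFC5 lie between -0.78 and -0.29, and RFC1 lies at 0.08 and 0.17. The asterisk marks POLE, whose probe lies outside the gene.

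Genes that act beside these enzymes were counted in the same way, and the lowest and highest of each list are by the mean of both siRNAs. Among all genes, 45.9% were below 0 with siRNA 1 and 46.5% with siRNA 2, and 3.02% and 4.24% were lower by 1.5-fold. Of 10 genes of Okazaki fragment processing and single-strand binding, 8 were below 0 with siRNA 1 (median -0.16) and 9 with siRNA 2 (median -0.36), and 1 and 3 were lower by 1.5-fold. The lowest was RNASEH2A, the catalytic subunit of ribonuclease H2 (-0.64 and -0.81), and the highest was RPA1, the large subunit of replication protein A (0.35 and -0.35). Of 11 alternative clamp loaders, PCNA partners and fork proteins, 11 were below 0 with siRNA 1 (median -0.35) and 10 with siRNA 2 (median -0.49), and 1 and 4 were lower by 1.5-fold. The lowest was PCLAF, the PCNA-associated factor, with ratios of -0.99 and -1.63, beside -0.02 and -0.41 for PCNA itself. The highest was ATAD5, which unloads PCNA (-0.13 and 0.08).

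The polymerases that act outside replication of the bulk genome had medians near that of all genes. Of 14 repair, translesion and mitochondrial polymerase genes 13 were measured, and POLN was not. With siRNA 1, 5 of the 13 were below 0 (median 0.04), and with siRNA 2, 6 were (median 0.06), against 45.9% and 46.5% of all genes. None was lower by 1.5-fold with either siRNA, against 3.02% and 4.24% of all genes. With siRNA 2, 1 was higher by 1.5-fold, for which no share of all genes was counted. It was POLI, a translesion polymerase (0.07 and 0.59), the highest of the list. MAD2L2, an accessory subunit of translesion polymerase ζ, was the lowest (-0.49 and -0.41). At an unadjusted p under 0.05 in the limma test, 2 of the 13 were lower (9.9% of all genes) and 0 were higher (2103 of 19218 genes). None of the 13 passed an adjusted p of 0.05.

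The helicase, nucleotide and mitosis genes were described by the same rules, beside 3.02% and 4.24% of all genes lower by 1.5-fold with siRNA 1 and siRNA 2. Of 11 genes of the CMG helicase, which unwinds DNA ahead of the polymerases, 3 were lower by 1.5-fold with siRNA 1 (median -0.35) and 5 with siRNA 2 (median -0.55), from CDC45 (-0.68 and -1.22) to MCM6 (0.35 and -0.02). Of 8 enzymes of deoxynucleotide synthesis, 5 were lower by 1.5-fold with each siRNA (medians -0.71 and -0.89), and the lowest was TK1, thymidine kinase (-1.09 and -1.56). Of 10 mitosis genes, 9 were lower by 1.5-fold with each siRNA (medians -0.96 and -1.10). The 10 ran from CCNB2, a mitotic cyclin (-1.22 and -1.74), to MKI67 (-0.46 and -0.32). The MKI67 probe was dim, with an average log2 intensity of 6.58 against 6.95 for the probe named POLE. In RNA from whole cultures, a smaller share of cells in S phase and less of each transcript per cell cannot be told apart. The part of the cell-cycle genes in the values of the polymerase, clamp and clamp loader genes was not tested.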

How the data were processed

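The arrays were scanned and quantified by the authors with Feature Extraction 9.5.1.1, and the deposited files give, per spot, mean and median intensity and local background in Cy3 and Cy5 before normalization, with probe coordinates on hg18. A further table holds log2 ratios that the authors normalized by loess on each array. It ran in the direction of Cy5 over Cy3 (Pearson correlation across probes 0.958 and 0.970) and served as an alternative. Here, mean intensities were background-corrected by normexp (offset 50) and normalized by loess (span 0.3) with limma 3.58.1 in R 4.3.3. Outlier spots (112 and 100) and control spots were dropped and spots of a probe averaged. Probes with at least 0.5 of their spots well above background in a channel on both arrays were kept (25673 of 41000), and the brightest probe stood for a gene. Of 19218 genes, 13128 were named through RefSeq and 6090 keep the name in the files. Intensities are quoted after loess, on a linear scale. Percentiles rank all genes from the lowest ratio.

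The mean over both siRNAs was tested against 0 with limma (lmFit, eBayes, Benjamini-Hochberg over all genes). Its SE is the moderated one of that fit. Genes named are the 10 members with every probe, SUB1, ACTB, GAPDH and, of each other list, the genes with the lowest and highest mean ratio. The cell type markers are named besides, and the other subunits of the same complexes and the genes near the POLE probe were named after their values were seen. Some genes that this rule or the marker lists name are not reported here. The members and lists were chosen with earlier results of these data known. Cell type markers were called present by the same background flag in Cy3. The number of arrays limits the precision. Alternatives covered background correction, normalization, the dim-probe filter, outlier spots, probe choice, the offset and leaving out either siRNA. The transcriptome sequencing named in the methods was not analysed here.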

Additional observations from a re-analysis of the deposited data

How the results depend on the processing

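The mean log2 ratios of POLA1, POLA2, PRIM1, POLD1, POLE2, RFC3 and RFC4 stayed below 0 in all 11 alternatives of processing and without either siRNA, and no member passed an adjusted p of 0.05 (lowest 0.057, RFC4 and POLA2). Ratios of the members were identical to the main ones with no filter on dim probes, a stricter filter and an intensity trend, so those settings add nothing on the sign. Centring arrays on the median in place of loess raised the median of all genes to 0.13 and 0.12 and turned the mean ratios of PCNA (0.039) and PRIM2 (0.0080) above 0. The member medians were then -0.21, -0.40 and, over both siRNAs, -0.35, with 8 and 9 of 10 members below the median of all genes. With siRNA 1, the 1.5-fold count was 0 with median centring, 1 with no background correction and with the deposited log2 ratios, and 3 with the mean over the probes of a gene and with an offset of 16, against 2. With siRNA 2 it was 4 with median centring and 6 with the processed signals, against 5. The 2-fold count with siRNA 2 was 0 with no background correction, with median signals and with median centring, and 2 with the processed signals of the scanner software. The median of the mean ranged from -0.56 to -0.38 when a siRNA was left out. The count of lower genes at an adjusted p of 0.05 was 0 with no background correction, median signals, median centring, processed signals, deposited ratios and an intensity trend, 3 with every probe in the fit and 78 with no filter on dim probes, which also gave 36 higher genes, against 0. POLE was left out after its values were seen, which changed no count of members and gave medians of -0.47 and -0.68. No paired analysis was possible because each siRNA has 1 array and each ratio already holds its own control. A slide block could not be fitted, since both arrays lie on 1 slide. RFC3 and the probe named POLE lay near background. Outside the members, the probes of ATAD5 and MKI67 were dimmer than the probe named POLE.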
